A study of Mus musculus with 9 samples.

Results

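Caveolae are flask-shaped pits of the plasma membrane that are abundant in ECs, and 8 genes of caveolae and of the endothelial surface were followed in RNA-Seq libraries of osteoblasts and ECs. The 8 genes were chosen by name with earlier results of these data known, and the deposited table holds 50686 genes. They are the caveolins Cav1 and Cav2, the cavins Cavin1, Cavin2, and Cavin3, the caveolar neck ATPase gene Ehd2, the diaphragm gene Plvap, and the endothelial sialomucin gene Emcn. The first group was the untreated MC3T3-E1 line, a mouse calvarial preosteoblast line referred to here as control osteoblasts. The second group was the same line after 14 days with 10 μM SB216763, a small molecule that inhibits GSK3. The third group was untreated mouse pulmonary ECs isolated by flow cytometric sorting, a different cell source from the line. There were 3 libraries of total RNA per group and 9 in all. The labels name neither separate cultures nor separate animals, so the p-values measure the spread between these libraries, which may be technical. The culture time of the control osteoblasts and the age and strain behind the ECs are not given in the labels, and the MC3T3-E1 groups represent a single established line.

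A caveola is built from caveolin oligomers inserted in the membrane and a coat of cavins around them, with EHD2 oligomers holding the neck. In microvascular ECs, PLVAP forms the thin diaphragms that span the openings of caveolae, fenestrae, and transendothelial channels. Caveolae take part in transcytosis, in signaling through receptors and endothelial NOS, and in buffering of membrane tension, and they also occur outside the endothelium in adipocytes, muscle, and fibroblasts.

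The libraries held between 30990107 and 68946333 counts, and 3 counts in a library corresponded to 0.0473 to 0.104 CPM (counts scaled to library size and TMM-normalized). This covers counting error only. The 7 endothelial markers Cdh5, Pecam1, Tie1, Tek, Kdr, Cldn5, and Vwf summed to between 5825 and 6012 CPM in the ECs, to between 3.10 and 3.89 CPM in the control osteoblasts, and to between 4.41 and 4.70 CPM in the treated osteoblasts. The ECs thus carried the defining markers of their label. The 6 osteoblast markers were Runx2, Sp7, Alpl, Col1a1, Ibsp, and Bglap. They summed to between 20090 and 28687 CPM in the control osteoblasts and to between 2826 and 2975 CPM in the treated osteoblasts. In the ECs they summed to between 28.9 and 38.3 CPM. Col1a1 made up nearly all of the sum in both osteoblast groups. After SB216763 the means fell by 26.2% for Runx2, 53.6% for Bglap, and 88.9% to 98.6% for Col1a1, Sp7, Ibsp, and Alpl. In bulk RNA, fewer cells of a type and less RNA per cell cannot be told apart, and this applies to each level below.

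The 8 genes did not move as a block after SB216763. Cavin2 rose, Plvap rose from a level under 1 CPM, Cav1 and Cav2 fell, Cavin1 and Cavin3 fell less, Ehd2 was slightly lower (a difference that did not hold under several alternatives and whose sign turned when libraries were scaled by size only), and Emcn gave no detectable difference. In the ECs, Cav1, Cav2, Cavin2, Ehd2, Plvap, and Emcn were all higher than in the control osteoblasts. Cavin1 and Cavin3 differed far less between the 2 cell types. Differences were tested with edgeR's quasi-likelihood test on 15531 genes. A gene was past the fold threshold where its log2 fold change was 2 or more in either direction and its FDR (Benjamini-Hochberg) was below 0.01, and by the FDR alone where only the latter was asked. The 8 genes were all among those tested. Emcn passed the filter on low counts through the ECs, and in a fit of the osteoblast libraries alone it was removed.

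**Figure D1:**
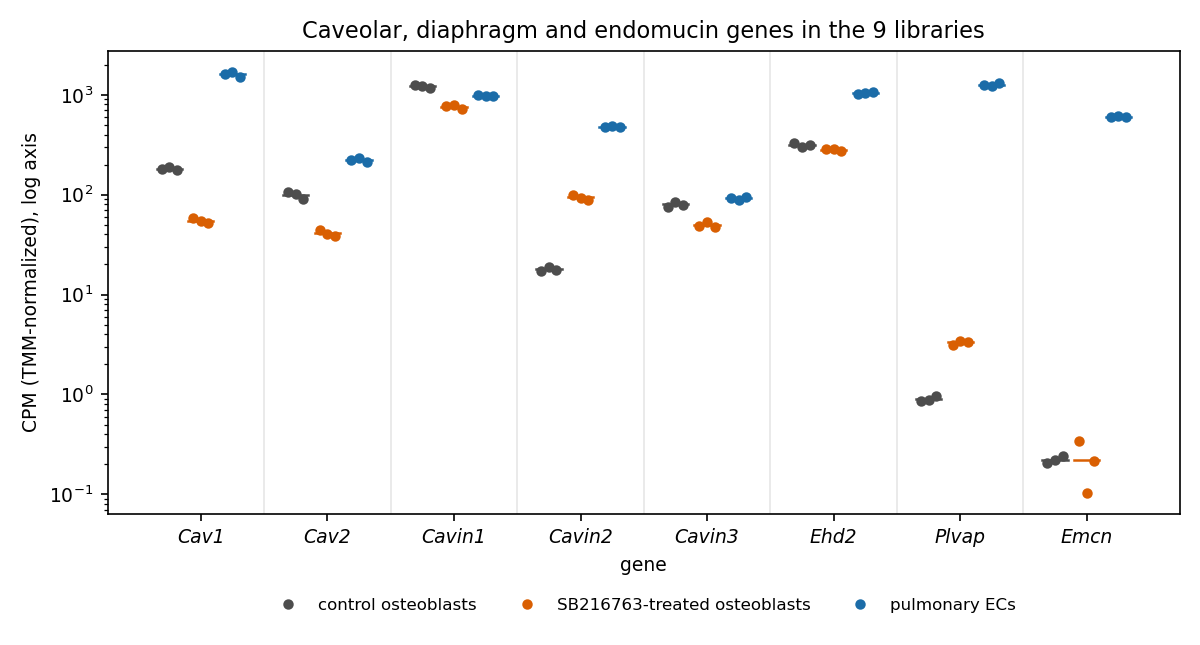
TMM-normalized CPM of the 8 genes on a log axis, 1 point per library and a line at the mean of each group (n = 3). Cavin2 and Plvap of the treated osteoblasts lie above the control osteoblasts, Cav1 and Cav2 lie below them, and the ECs are far above both osteoblast groups for Plvap and Emcn.

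Cav1 and Cav2 encode the caveolins, and they lie next to each other on chromosome 6. Cav1 (ENSMUSG00000007655, chr6:17306335-17341452, plus strand) begins downstream of Cav2 (ENSMUSG00000000058, chr6:17281185-17289115, plus strand). Coordinates are those of GENCODE M21 on GRCm38. The 250 bases before the start of a transcript were available from RefSeq (GRCm38.p6) for 6 of the 8 genes, and 4 are shown because this caveolin pair and Cavin2 moved in opposite directions and because Emcn stood near the floor in the osteoblasts. For Cav1 the window is that of the upstream of its RefSeq starts. Capitals mark CpG dinucleotides. The windows are chr6:17306085-17306334 for Cav1, chr6:17280935-17281184 for Cav2, chr1:51288876-51289125 for Cavin2, and chr3:137340828-137341077 for Emcn, all on the plus strand and written 5′ to 3′.
Cav1: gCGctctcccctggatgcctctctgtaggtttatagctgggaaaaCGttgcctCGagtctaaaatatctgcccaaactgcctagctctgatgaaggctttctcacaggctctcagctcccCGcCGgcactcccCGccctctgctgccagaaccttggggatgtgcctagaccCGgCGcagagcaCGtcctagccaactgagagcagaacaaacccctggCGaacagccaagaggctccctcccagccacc
Cav2: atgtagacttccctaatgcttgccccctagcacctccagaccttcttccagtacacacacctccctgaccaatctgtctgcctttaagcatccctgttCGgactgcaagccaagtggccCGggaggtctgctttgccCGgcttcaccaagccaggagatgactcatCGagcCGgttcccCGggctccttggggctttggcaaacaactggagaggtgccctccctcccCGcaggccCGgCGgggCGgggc
Cavin2: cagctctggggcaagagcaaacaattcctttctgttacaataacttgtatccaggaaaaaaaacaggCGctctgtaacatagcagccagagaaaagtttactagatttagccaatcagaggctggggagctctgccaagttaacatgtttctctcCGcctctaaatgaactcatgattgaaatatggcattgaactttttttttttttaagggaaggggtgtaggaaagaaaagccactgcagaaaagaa
Emcn: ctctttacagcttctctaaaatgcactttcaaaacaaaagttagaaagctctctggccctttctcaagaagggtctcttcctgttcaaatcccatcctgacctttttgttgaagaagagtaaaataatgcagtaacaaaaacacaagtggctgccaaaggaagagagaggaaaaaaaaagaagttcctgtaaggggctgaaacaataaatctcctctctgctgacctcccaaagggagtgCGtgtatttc

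The windows of Cav1 and Cav2 each held 10 CpG dinucleotides at a GC content of 59.6% and 62%, respectively. The window of Cavin2 held 2 at 40.4% GC, and that of Emcn held 1 at 40.8% GC. Among all 32851 windows of the RefSeq table the median was 6 CpG dinucleotides, with quartiles at 2 and 16, and the median GC content was 52.4%. The 4 windows thus fell on both sides of the middle of all promoters. The windows of Cavin1 and Ehd2 held 12 CpG dinucleotides each. The core motif of the TCF/LEF factors, through which β-catenin acts, was searched on both strands as CTTTGNN with A or T at each N. It had no match in any window of the 6 genes, and 14.8% of all windows held it, so these letters were not in these windows and nothing follows for the factors.

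Cav1 encodes caveolin-1, the main structural protein of caveolae outside striated muscle. Cav1 was at 180.3, 189.8, and 177 CPM in the control osteoblasts, at 58.1, 54.7, and 51.6 CPM in the treated osteoblasts, and at 1619, 1698, and 1516 CPM in the ECs. The treated libraries were the lowest and the ECs the highest, with no overlap between any of the groups. The mean fell by 69.9% after SB216763, a log2 fold change of -1.73 (standard error, SE, 0.06, edgeR quasi-likelihood test, Benjamini-Hochberg adjusted p = 3.89e-13), which is short of the fold threshold. The ECs were 8.84-fold above the control osteoblasts (log2 fold change 3.14, edgeR adjusted p = 9.94e-17) and 29.4-fold above the treated osteoblasts (4.88, edgeR adjusted p = 1.41e-18).

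Cav2 encodes caveolin-2, which joins caveolin-1 in hetero-oligomers. Its levels were 107, 102, and 90.4 CPM in the control osteoblasts, 44.3, 40.2, and 38.2 CPM in the treated osteoblasts, and 225, 235, and 211 CPM in the ECs. The order of the groups was that of Cav1, again without overlap. The mean fell by 59.0% after SB216763 (log2 fold change -1.29, SE 0.07, edgeR adjusted p = 7.96e-11), and the ECs were 2.24-fold above the control osteoblasts (1.16, edgeR adjusted p = 1e-10). Summed over both caveolins, the CPM went from 282 ± 13.2 in the control osteoblasts to 95.7 ± 6.30 in the treated osteoblasts and stood at 1835 ± 103 in the ECs (SD, n = 3).

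The balance of the caveolin pair differed as well. For each Cav1 count there were 0.594, 0.537, and 0.512 Cav2 counts in the control osteoblasts, 0.763, 0.735, and 0.741 in the treated osteoblasts, and 0.139, 0.138, and 0.139 in the ECs. All treated libraries lay above the control libraries and all EC libraries below them, so the treated ratio stood on the side away from the ECs. These ratios are taken within a library and do not depend on the scaling between libraries. A 2-sided exact permutation test of 3 against 3 libraries cannot go below p = 0.1, and each of the 3 differences of this ratio reached that value (adjusted p = 0.12 over 12 tests of ratios and shares).

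Cavin1 encodes the coat protein required for caveola formation, and it was the most abundant of the 3 cavins in every group. Cavin1 (ENSMUSG00000004044, chr11:100956733-100970887, minus strand) was at 1258, 1212, and 1171 CPM in the control osteoblasts, at 777, 781, and 724 CPM in the treated osteoblasts, and at 985, 963, and 973 CPM in the ECs. The treated libraries were the lowest and the ECs lay between the osteoblast groups, with no overlap. The mean fell by 37.3% after SB216763 (log2 fold change -0.67, SE 0.05, edgeR adjusted p = 6.61e-09). Cavin1 was the one gene of the 8 that was lower in the ECs than in the control osteoblasts, by 19.8% (log2 fold change -0.32, edgeR adjusted p = 2.9e-05).

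Cavin2 encodes the cavin that binds phosphatidylserine and shapes caveolar membrane, also known as serum deprivation response protein. Cavin2 (ENSMUSG00000045954, chr1:51289126-51302960, plus strand) was at 17.2, 19.0, and 17.8 CPM in the control osteoblasts, at 100.1, 93.4, and 88.5 CPM in the treated osteoblasts, and at 470.5, 485, and 475 CPM in the ECs. The 3 groups formed separate steps, each several times above the one before. The treated mean was 5.22-fold above the control mean, a log2 fold change of 2.38 (SE 0.06, 95% interval 2.26 to 2.51, edgeR quasi-likelihood test, Benjamini-Hochberg adjusted p = 3.56e-15). The EC mean was 26.5-fold above the control osteoblasts (log2 fold change 4.73, edgeR adjusted p = 5.13e-19) and 5.07-fold above the treated osteoblasts (2.34, edgeR adjusted p = 5.68e-16).

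Cavin3 encodes the cavin that binds protein kinase C delta. Cavin3 (ENSMUSG00000037060, chr7:105480083-105482300, minus strand) was at 75.8, 85.3, and 78.6 CPM in the control osteoblasts, at 48.7, 53.1, and 46.9 CPM in the treated osteoblasts, and at 91.7, 89.2, and 95.4 CPM in the ECs. The ordering was as for the caveolins but with much smaller steps. The mean fell by 37.9% after SB216763 (log2 fold change -0.69, SE 0.06, edgeR adjusted p = 1.88e-08), and the ECs were 1.15-fold above the control osteoblasts (0.21, edgeR adjusted p = 0.00294). The latter call was lost without control replicate 1 (edgeR adjusted p = 0.0214), control replicate 3 (0.0179), or EC replicate 3 (0.022). Gm45667, which overlaps Cavin3 on the opposite strand by 374 bases of exon, had 55 counts in all libraries against 28270 for Cavin3.

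The makeup of the cavin coat transcripts changed accordingly. Cavin2 made up 1.27%, 1.44%, and 1.41% of the summed counts of Cavin1, Cavin2, and Cavin3 in the control osteoblasts, 10.8%, 10.1%, and 10.3% in the treated osteoblasts, and 30.4%, 31.5%, and 30.8% in the ECs. These are shares of counts, not corrected for the length of the genes. Cavin1 took the complementary course, with 92.5% ± 0.533, 84.1% ± 0.167, and 63.1% ± 0.510 in the same groups (SD, n = 3). For both shares the groups did not overlap, and each of the 3 differences had the smallest p that 3 against 3 libraries allow (0.1 in the exact permutation test, adjusted p = 0.12). The share of Cavin3 was 6.10% ± 0.446, 5.48% ± 0.235, and 5.97% ± 0.194 (SD, n = 3), and its differences from the control osteoblasts were within the spread of the libraries (exact permutation p = 0.2 for the treated osteoblasts and 0.7 for the ECs, adjusted p = 0.218 and 0.7).

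Relative to Cav1, the counts of Cavin1 and Cavin2 also differed between the groups. There were 6.66 ± 0.298 Cavin1 counts per Cav1 count in the control osteoblasts, 13.9 ± 0.455 in the treated osteoblasts, and 0.606 ± 0.0376 in the ECs. There were 0.0988 ± 0.00287, 1.71 ± 0.00848, and 0.296 ± 0.0147 Cavin2 counts per Cav1 count in the same groups. In the treated osteoblasts both ratios were therefore above those of the control osteoblasts and of the ECs alike. These values are descriptions and were not tested.

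**Figure D2:**
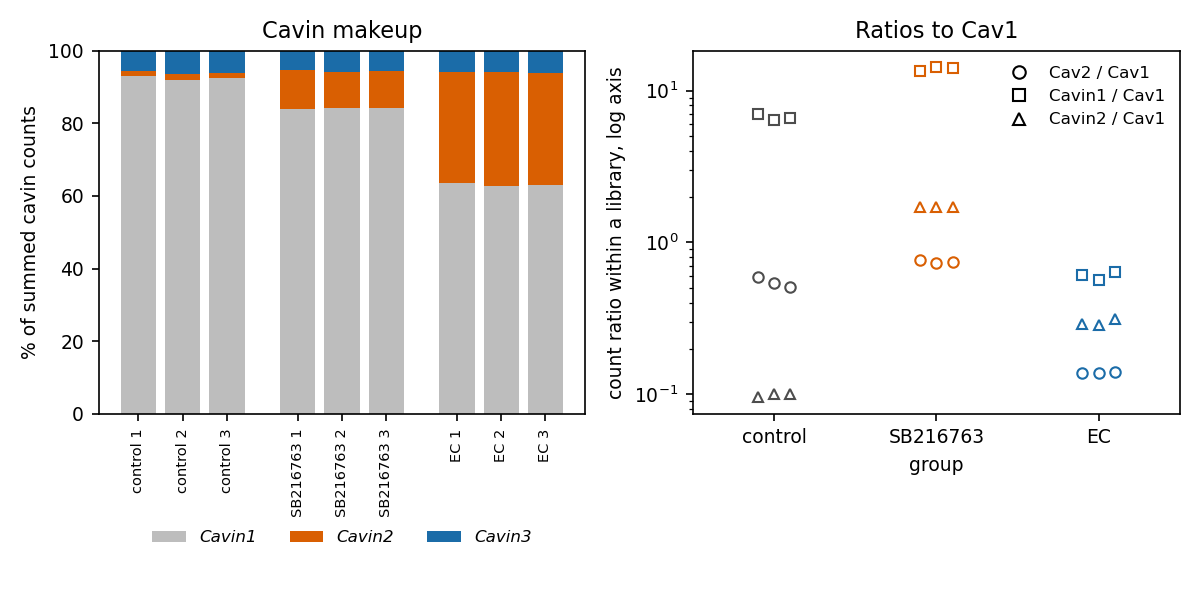
Left, percentage of the summed Cavin1, Cavin2, and Cavin3 counts taken by each gene in each library; right, count ratios of Cav2, Cavin1, and Cavin2 to Cav1 within a library, on a log axis with 1 point per library. Cavin2 takes 10.1% to 10.8% of the cavin counts in the treated libraries and 1.27% to 1.44% in the control libraries, and the treated libraries have the highest ratios to Cav1.

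Ehd2 encodes the ATPase that oligomerizes at the neck of caveolae and stabilizes them at the surface. Ehd2 (ENSMUSG00000074364, chr7:15946958-15967567, minus strand) was at 327, 300.0, and 312 CPM in the control osteoblasts, at 284, 287, and 271 CPM in the treated osteoblasts, and at 1028, 1036, and 1063 CPM in the ECs. The osteoblast groups lay close together without overlap, and the ECs were far above both. The mean was 10.3% lower after SB216763 (log2 fold change -0.16, SE 0.05, edgeR adjusted p = 0.00932). With scaling by library size only, which shifted the median of all genes in this comparison by 0.20 on the log2 scale, the sign of this difference turned (0.05, edgeR adjusted p = 0.33). The FDR of 0.01 was also missed when any 1 library other than control replicate 2 was left out (edgeR adjusted p = 0.011 to 0.0453), without a filter (0.0871), and with a filter of 10 counts (0.0102). The ECs were 3.33-fold above the control osteoblasts (log2 fold change 1.74, edgeR adjusted p = 1.31e-14).

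Plvap encodes the protein of the endothelial diaphragms. Plvap (ENSMUSG00000034845, chr8:71497765-71511752, minus strand) was at 0.851, 0.874, and 0.972 CPM in the control osteoblasts, at 3.10, 3.47, and 3.38 CPM in the treated osteoblasts, and at 1249, 1225, and 1298 CPM in the ECs. The counts behind these levels were 54, 48, and 28 in the control libraries and 108, 133, and 124 in the treated libraries, all above the floor of 3 counts. The treated mean was 3.69-fold above the control mean, without overlap, at a log2 fold change of 1.90 (SE 0.10, 95% interval 1.69 to 2.12, edgeR quasi-likelihood test, Benjamini-Hochberg adjusted p = 8.69e-11), just under the fold threshold. The EC mean was still 379.5-fold above the treated mean (log2 fold change 8.56, edgeR adjusted p = 1.56e-20) and 1399-fold above the control mean (10.47, edgeR adjusted p = 1.35e-20).

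The level of Plvap was also set against the general endothelial markers of the same libraries. Cdh5, which encodes VE-cadherin, was at 0.488 to 0.746 CPM in the control osteoblasts and at 0.517 to 0.678 CPM in the treated osteoblasts, ranges that overlapped. There were 1.59 ± 0.371 Plvap counts per Cdh5 count in the control osteoblasts, 5.59 ± 0.807 in the treated osteoblasts, and 0.701 ± 0.00793 in the ECs (SD, n = 3). Both osteoblast groups thus held more Plvap per Cdh5 than the ECs, and the treated libraries held the most. The osteoblast values rest on 15 to 41 Cdh5 counts per library. Per Vwf count the order was another, with 1.37 ± 0.0980 Plvap counts in the treated osteoblasts and 4.92 ± 0.254 in the ECs. Of the 7 endothelial markers, Vwf rose after SB216763 (1.16 ± 0.0881 to 2.42 ± 0.0804 CPM, log2 fold change 1.07, edgeR adjusted p = 1.11e-06), and the other 6 did not pass the FDR. By the FDR alone, 32.9% of all genes tested rose. Tek had at most 6 counts and Cldn5 at most 5 in any osteoblast library, so a change in either was hardly detectable.

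Emcn encodes endomucin, a sialomucin of the surface of venous and capillary endothelium. Emcn (ENSMUSG00000054690, chr3:137341067-137432185, plus strand) was at 599, 609, and 604 CPM in the ECs. It was at 0.205, 0.218, and 0.243 CPM in the control osteoblasts and at 0.344, 0.104, and 0.218 CPM in the treated osteoblasts, which rest on 7 to 13 and 4 to 12 counts per library. The osteoblast groups overlapped, and a difference between them was not detectable at this depth (log2 fold change 0.01, 95% interval -0.69 to 0.70, edgeR adjusted p = 1). The ECs were 2719-fold above the control osteoblasts (log2 fold change 11.42). Emcn passed the filter on low counts only through the ECs, so this difference is given as a description without a p-value. Plvap passed the FDR after SB216763 and Emcn did not, and the difference between the 2 changes was not tested.

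**Figure D3:**
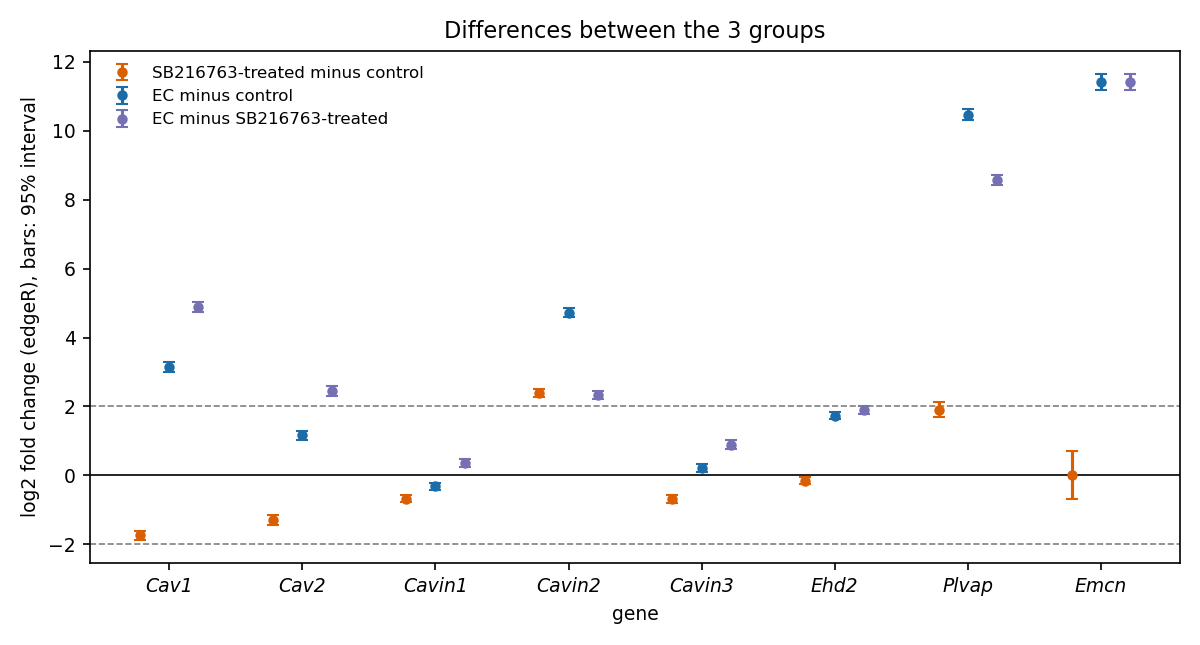
Log2 fold changes of the 8 genes in the 3 comparisons, with 95% intervals from edgeR and dashed lines at the threshold of 2 in each direction. After SB216763 the genes spread from -1.73 for Cav1 to 2.38 for Cavin2, and in the ECs Plvap and Emcn exceed the control osteoblasts by 10.47 and 11.42.

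Counted against the whole table, 1 of the 8 genes (Cavin2) rose past the fold threshold after SB216763, where 3.81% of all genes tested did, and none fell past it, where 5.84% did. By the FDR alone, 2 rose (Cavin2 and Plvap) and 5 fell (Cav1, Cav2, Cavin1, Cavin3, and Ehd2), and 1 (Emcn) did not pass. The call of Ehd2 did not hold under the alternatives named above, which leaves 4 that fell. The FDR alone called 32.9% of all genes higher and 32% lower, so passing it was common in this comparison. The median log2 fold change was -0.42 over the 8 genes and 0.01 over all genes tested.

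Between the ECs and the control osteoblasts, 4 of the 8 genes (Cav1, Cavin2, Plvap, and Emcn) were higher in the ECs past the fold threshold, where 13.5% of all genes tested were, and none was lower past it, where 9.87% were. Emcn could pass the filter only through the ECs, so its call was fixed by the filter, and without it the count is 3 of 7. By the FDR alone 7 were higher, Emcn among them, and 1 was lower, against 39% and 37.9% of all genes. Leaving out control replicate 1, control replicate 3, or EC replicate 3 removed Cavin3 from the 7. The ECs against the treated osteoblasts gave 5 higher past the fold threshold (the same 4 and Cav2, or 4 of 7 without Emcn) and none lower, against 15% and 10.3% of all genes, and by the FDR alone 8 were higher and none lower, against 40.3% and 38.3%. The median log2 fold changes over the 8 genes were 2.44 and 2.40 in these comparisons, and those of all genes were 0.01 and 0.02. The FDR counts and the medians of the 8 genes include Emcn in both comparisons, so they carry the same limit. The comparisons share libraries, so they are not independent of each other.

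The treated level was also placed on the log2 scale between the control osteoblasts, set to 0, and the ECs, set to 1, for the 6 genes for which the 2 differed by at least 1. Cavin2 was at 0.504 ± 0.0188, about midway, and Plvap was at 0.176 ± 0.00812 (SD, n = 3). Cav1 was at -0.55 ± 0.0270 and Cav2 at -1.10 ± 0.0928, below the control osteoblasts. Ehd2 at -0.0896 ± 0.0248 and Emcn at -0.00916 ± 0.0617 were near the control level. These positions use the control libraries for both differences and are given as a description.

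Levels of different genes were compared per kilobase of exon. In the control osteoblasts the order was Cavin1 (338 ± 12.1 CPM per kb), Ehd2 (61.1 ± 2.60), Cav1 (52.9 ± 1.96), Cavin3 (48.1 ± 2.95), Cav2 (29.9 ± 2.56), Cavin2 (5.89 ± 0.292), Plvap (0.452 ± 0.0326), and Emcn (0.0411 ± 0.00359). In the treated osteoblasts Cavin1 stayed first (212 ± 8.90 CPM per kb) and Ehd2 second (54.8 ± 1.63), while Cavin2 (30.8 ± 1.90) stood beside Cavin3 (29.8 ± 1.92), a pair that differed by less than its spread, and above Cav1 (15.9 ± 0.936) and Cav2 (12.3 ± 0.930). In the ECs Plvap came first (633 ± 18.9 CPM per kb), followed by Cav1 (468 ± 26.5), Cavin1 (271 ± 3.14), Ehd2 (204 ± 3.62), Cavin2 (156 ± 2.37), Emcn (112 ± 0.977), Cav2 (67.0 ± 3.59), and Cavin3 (55.4 ± 1.90). Plvap and Emcn were thus last in both osteoblast groups, and Plvap was first in the ECs.

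**Figure D4:**
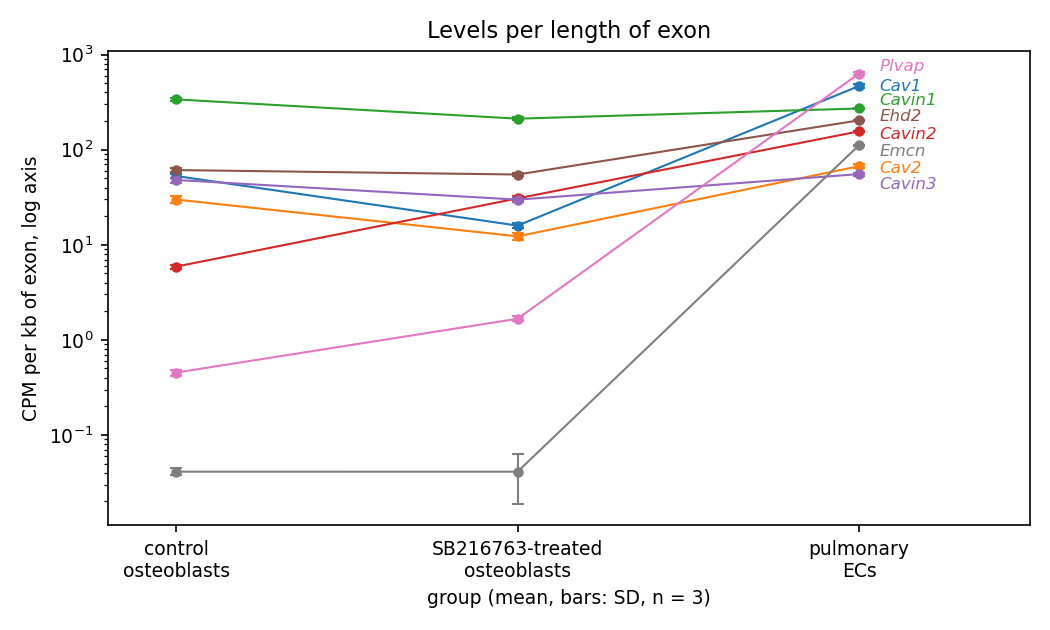
Mean CPM per kilobase of exon of the 8 genes in the 3 groups on a log axis, with bars for the SD (n = 3); lines join the means of a gene and imply no course over time. Cavin1 is highest in both osteoblast groups, and Plvap and Cav1 are highest in the ECs at 633 and 468 CPM per kb.

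For each of the 8 genes the genes nearest in pattern were found among all genes tested, by the root mean square difference of log2 CPM centered on each gene's mean over the 9 libraries. Cavin2 was nearest to Slc27a1 (0.0966) and Fam43a (0.137), and Cav1 to Gm4737 (0.143) and Kcnk2 (0.151). Plvap was nearest to Cd93 (0.290) and Calcrl (0.418), and Emcn to Clec14a (0.195) and Myct1 (0.205). Among the 8 genes, Plvap thus had the largest distance to its nearest gene. This distance was not scaled to the size of a gene's differences between the groups. The nearest genes were Smurf2 and Pter for Cav2, Pes1 and Erf for Cavin1, Slc25a3 and Ppm1g for Cavin3, and Tnfrsf22 and Snrk for Ehd2, at 0.0318 to 0.0929.

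Of 11 other genes of the caveolar coat, neck, and membrane, 9 were tested. After SB216763, 2 of the 9 rose by the FDR (Ehd4 and Pacsin3), 6 fell (Cavin4, Ehd1, Ehd3, Dnm2, Flna, and Ror1), beside 32.9% and 32% of all genes tested, and Pacsin2, a membrane-bending F-BAR protein gene, gave a log2 fold change of 0.01 (edgeR adjusted p = 0.795). The median log2 fold change was -0.70. Cavin4, the cavin of striated muscle, was the one gene past the fold threshold, which 5.84% of all genes tested fell past and 3.81% rose past. It was at 88.2, 83.6, and 81.1 CPM in the control osteoblasts, at 12.3, 14.0, and 12.8 CPM in the treated osteoblasts, and at 0.137, 0.122, and 0.162 CPM in the ECs (4 to 7 counts). The osteoblast groups were far apart (log2 fold change -2.69, edgeR adjusted p = 7.25e-16). Cav3, the muscle caveolin gene, had 0 counts in all 9 libraries, and Myog and Ckm had at most 7 counts in any library. The muscle marker Des took the other direction from Cavin4. It went from 8.02 ± 0.314 to 9.72 ± 0.208 CPM after SB216763 (SD, n = 3, log2 fold change 0.27, edgeR adjusted p = 0.00497).

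The relatives of Ehd2 differed in their direction. Ehd1, an endosomal recycling ATPase gene, went from 201 ± 3.14 to 112 ± 3.28 CPM after SB216763 and was at 276 ± 7.35 CPM in the ECs. Ehd3 went from 78.4 ± 1.68 to 27.2 ± 2.14 CPM (log2 fold change -1.53, edgeR adjusted p = 9.48e-13) and was at 21.2 ± 1.24 CPM in the ECs. Ehd4 went from 81.4 ± 0.532 to 97.6 ± 4.72 CPM (0.26, edgeR adjusted p = 8.02e-05) and was at 537 ± 1.42 CPM in the ECs (2.72 against the control osteoblasts, edgeR adjusted p = 1.96e-17). Ehd4 was the one of the 9 genes higher in the ECs than in the control osteoblasts past the fold threshold. Cavin4 and Ror1 were lower past it. Of all genes tested, 13.5% were higher and 9.87% lower past this threshold. By the FDR alone, 5 of the 9 were higher in the ECs than in the control osteoblasts and 4 were lower, beside 39% and 37.9% of all genes tested.

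Of the 4 flotillin and erlin genes, which encode scaffolds of membrane rafts outside caveolae, 2 rose after SB216763 and none fell by the FDR. Of all genes tested, 32.9% rose and 32% fell by it. Flot2 (123 ± 3.68 to 155 ± 6.27 CPM, log2 fold change 0.34, edgeR adjusted p = 5.23e-06) and Erlin2 (0.60, edgeR adjusted p = 1.12e-08) were those that rose. Flot1 (0.03, edgeR adjusted p = 0.609) and Erlin1 (0.04, edgeR adjusted p = 0.35) did not pass. Flot2 had 9, 5, and 10 counts in the EC libraries, 0.152 to 0.232 CPM, while its partner Flot1 was at 36.3 ± 0.645 CPM there. The signs of the Flot1 and Erlin1 values are not given as directions.

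**Figure D5:**
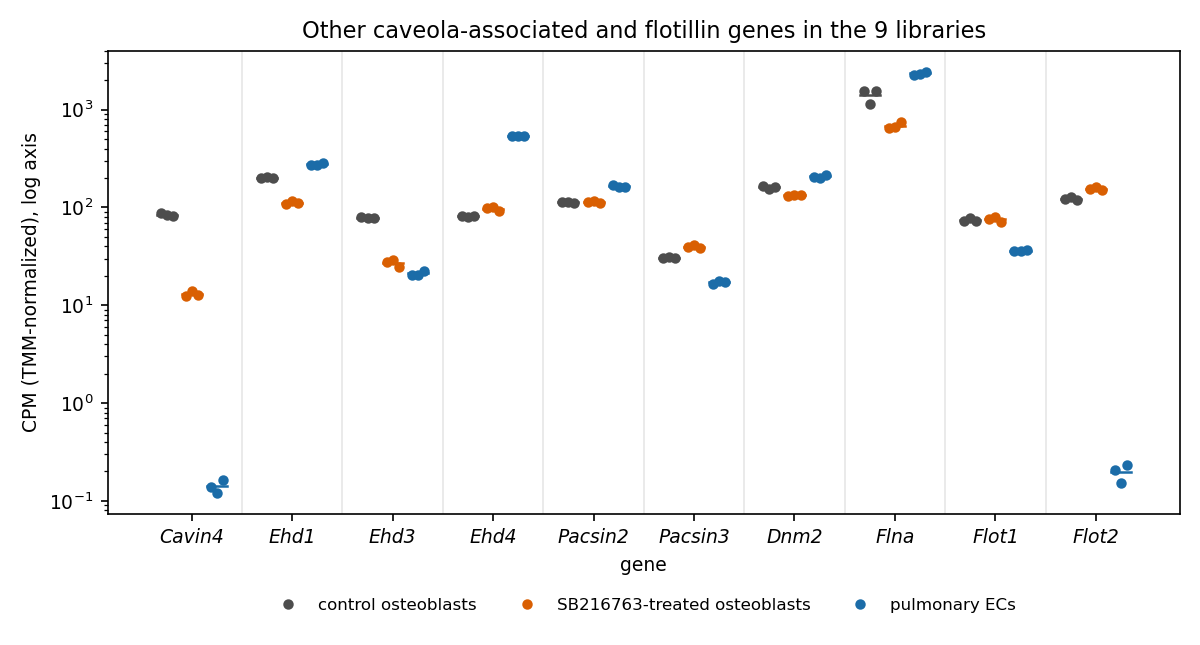
TMM-normalized CPM of other caveola-associated genes and both flotillin genes on a log axis, 1 point per library and a line at the mean of each group (n = 3). Cavin4 falls from 81.1 to 88.2 CPM in the control libraries to 12.3 to 14.0 CPM in the treated libraries, and Cavin4 and Flot2 lie under 0.3 CPM in the ECs.

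Among 4 sialomucins related to endomucin or of the endothelial surface, 3 were tested and showed no common direction after SB216763. Cd34 fell from 54.1 ± 3.39 to 30.3 ± 2.65 CPM (log2 fold change -0.83, edgeR adjusted p = 7.47e-09) and stood at 919 ± 7.01 CPM in the ECs. Podxl, the podocalyxin gene, was at 0.243 to 0.364 CPM in the control osteoblasts and 0.172 to 0.436 CPM in the treated osteoblasts, which overlapped, and at 619 ± 12.0 CPM in the ECs. Cd164, a broadly expressed sialomucin gene, rose from 305 ± 25.9 to 522 ± 46.5 CPM (0.78, edgeR adjusted p = 1.89e-07). Podxl2 had at most 1 count in any library.

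Of 5 genes for partners or cargo of caveolae, 1 rose and 1 fell by the FDR after SB216763, beside 32.9% and 32% of all genes tested. The one that rose was Insr, the insulin receptor gene (log2 fold change 0.36, edgeR adjusted p = 0.00138). The one that fell was Scarb1, the HDL receptor gene, at 73.2 ± 3.41 CPM in the control osteoblasts and 27.7 ± 1.34 CPM in the treated osteoblasts (-1.40, edgeR adjusted p = 6.56e-13). Nos3, the gene of endothelial NOS, was at 0.455 to 0.590 CPM in the control osteoblasts, 0.327 to 0.521 CPM in the treated osteoblasts, and 455 ± 18.9 CPM in the ECs, and its osteoblast groups overlapped (-0.21, edgeR adjusted p = 0.501). Acvrl1, the gene of the endothelial BMP receptor ALK1, was at 0.305 ± 0.0597, 0.274 ± 0.0344, and 705 ± 15.1 CPM in the same order (-0.22 after SB216763, edgeR adjusted p = 0.55). Cd36, the fatty acid transporter gene, had at most 26 counts in any library.

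The neighbors of Cav1 and Cav2 on chromosome 6 did not follow the caveolin pair as a group. Of 7 genes, 6 were tested. After SB216763, Tes rose past the fold threshold, where 3.81% of all genes tested did. St7 and Mdfic fell by the FDR, where 32% of all genes did, and Met and Capza2 did not pass. Tfec did not pass either, but it had at most 4 counts in any osteoblast library, so a change in it is not readable. Tes, which encodes the focal adhesion protein testin and ends upstream of Cav2 at chr6:17065149-17105828, was at 4.95, 6.35, and 5.90 CPM in the control osteoblasts, at 28.4, 31.5, and 30.6 CPM in the treated osteoblasts, and at 99.7, 104, and 98.7 CPM in the ECs. Its groups rose in steps without overlap (log2 fold change 2.41 after SB216763, edgeR adjusted p = 1.18e-13), opposite in sign to Cav1 and Cav2. St7, on the other side of the pair, went from 46.8 ± 1.42 to 20.3 ± 1.23 CPM (-1.21, edgeR adjusted p = 5.56e-12), and Met, the HGF receptor gene between Cav1 and St7, was at 3.17 ± 0.331 and 2.97 ± 0.344 CPM (-0.09, edgeR adjusted p = 0.421). Wnt2 had at most 3 counts in any library.

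Other cell types that carry caveolae or could be present in a lung preparation were checked by their markers. The 5 smooth muscle and pericyte markers summed to between 3084 and 3247 CPM in the control osteoblasts, 885 and 896 CPM in the treated osteoblasts, and 24.0 and 25.4 CPM in the ECs, mostly Acta2 (2825 to 3016, 134 to 152, and 16.4 to 17.4 CPM) and Pdgfrb (means of 254, 746, and 5.98 CPM). Rgs5 had at most 8 counts and Myh11 at most 24 counts in any library. The 5 adipocyte markers summed to at most 0.258 CPM in the osteoblasts and to between 19.7 and 20.5 CPM in the ECs, where Adipoq had 0 counts, Plin1 at most 3, and Pparg made up most of the sum. The 5 muscle markers summed to between 88.9 and 96.3 CPM, 22.2 and 23.8 CPM, and 0.252 and 0.426 CPM in the 3 groups, mostly Cavin4 and Des. The part of these lists in the levels of the caveolar genes was not tested.

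In the ECs, the blood cell marker Cd3e and the alveolar markers Epcam and Sftpc had 0 counts, the blood cell marker Ptprc had at most 6, and Hbb-bs had at most 4. The blood cell marker Cd68 was at 45.5, 46.7, and 47.5 CPM there, at 0.309 to 0.662 CPM in the control osteoblasts, and at 1.58 to 1.72 CPM in the treated osteoblasts. The 5 alveolar epithelial markers summed to between 0.803 and 0.892 CPM in the control osteoblasts, 2.29 and 3.27 CPM in the treated osteoblasts, and 1.43 and 2.27 CPM in the ECs. Of the 4 lymphatic endothelial markers, Lyve1 was at 85.8 to 89.1 CPM in the ECs, where Prox1 had at most 1 count and Ccl21a had 0. The summed lymphatic list was at 90.8 to 102 CPM in the osteoblast libraries, nearly all of it Pdpn.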

How the data were processed

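RNA-Seq libraries of control MC3T3-E1 osteoblasts, SB216763-treated MC3T3-E1 osteoblasts, and mouse pulmonary ECs were analyzed (3 each). The authors aligned the reads with STAR (2.5.3a, GRCm38, per the submitters' processing notes) and deposited whole-number counts per gene without normalization. The annotation and strand setting are not given in the sources used here. The labels repeat the treatment protocol for every sample, so groups were taken from the titles and treatment entries.

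The counts were tested in R 4.3.3 with edgeR 4.0.16 (filterByExpr, TMM, quasi-likelihood fit to all 9 libraries, Benjamini-Hochberg adjustment over 15531 genes). The fold threshold was a log2 fold change of 2 or more in either direction together with an FDR below 0.01. Log2 fold changes used a prior count of 0.125, and log2 CPM values used 2. Ratios within a library were compared by 2-sided exact permutation tests. Exon lengths were the merged exons of GENCODE M21, in which 50462 of the 50686 gene identifiers were found by identifier. Promoter windows came from RefSeq, GRCm38.p6. The 8 genes, the further gene lists, and the markers of 8 cell types (endothelial, osteoblast, lymphatic endothelial, adipocyte, muscle, smooth muscle and pericyte, alveolar epithelial, and blood cell) were chosen with earlier results of these data known, and genes beyond them were named by nearness in pattern, 2 for each of the 8. One result is not reported here. No columns (0) were left without a sample.

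No pair of replicates agreed within sampling noise (chi-square per gene at least 2.93). The values were 27.4 to 109.6 between control libraries, 3.20 to 27.3 between treated libraries, and 2.93 to 4.73 between EC libraries. The replicate numbers did not pair the libraries, with correlations of same-numbered deviations between -0.0392 and 0.123. The scripts were tested on simulated data. As alternatives, the fits were repeated with limma-voom (limma 3.58.1) and DESeq2 1.42.0, with other normalizations, filters, prior counts, and thresholds, on the 2 groups compared, with a replicate block, and without each library in turn.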

Additional observations from a re-analysis of the deposited data

How the results depend on the processing

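The number of the 8 genes past the threshold was the same under limma-voom, DESeq2, upper-quartile and RLE scaling, both other filters, fits of 2 groups, an FDR under 0.05, a prior count of 2, glmTreat at a log2 fold change of 2, and each left-out library. Over all genes, glmTreat called 318 higher after SB216763 in place of 592, and a fold limit of 1 called 1726 higher and 2015 lower in place of 592 and 907. With the replicate block, the counts of the 8 genes were 1 higher and 0 lower after SB216763, 4 higher in ECs than in control osteoblasts, and 5 higher in ECs than in treated osteoblasts, as without it. Scaling by library size only gave 2 higher after SB216763, adding Plvap at a log2 fold change of 2.11 (edgeR adjusted p = 3.28e-11). For the 8 genes after SB216763, a fold limit of 1 gave 2 higher and 2 lower, and no fold limit gave 2 higher and 5 lower, of which Ehd2 was lost in 8 of 9 fits with 1 library left out and under both other filters. Without a fold limit, 32.9% of all genes tested rose and 32% fell. The fold limit of 1 gave 6 higher in ECs against each of the osteoblast groups. Of the 15531 genes tested, 3295 were higher by it than in control osteoblasts and 3608 than in treated osteoblasts. Without a fold limit, 7 were higher and 1 lower in ECs than in control osteoblasts, beside 39% and 37.9% of all genes. Against treated osteoblasts, 8 were higher in ECs and none lower, beside 40.3% and 38.3%. All these counts of genes higher in ECs include Emcn, which passed the main filter through the ECs. Under library size only, the positions between control osteoblasts and ECs were -0.468 for Cav1, -0.837 for Cav2, 0.533 for Cavin2, 0.0259 for Ehd2, and 0.193 for Plvap. The change of Ehd2 after SB216763 turned to 0.0477 under library size only. Emcn turned to -0.12 under limma-voom and ranged from -0.44 to 0.35 with 1 library left out. It rests on at most 13 counts per osteoblast library, was removed by the filter in the fit of the osteoblast groups alone, and its direction is not readable at this depth. No other fold change of the 8 genes changed sign under these alternatives.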

Other observations

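Plvap and Vwf were not the only cell type markers that rose after SB216763 from a level near 1 CPM or below. Ager, the gene of the receptor for advanced glycation end products and here an alveolar marker, rose from 0.417 ± 0.0479 to 2.64 ± 0.477 CPM (SD, n = 3, log2 fold change 2.68, edgeR adjusted p = 2.84e-08) and was at 1.84 ± 0.452 CPM in the ECs. Cd68, a lysosomal gene of macrophages listed as a blood cell marker, rose from 0.532 ± 0.194 to 1.63 ± 0.0822 CPM (1.63, edgeR adjusted p = 1.66e-06) and was at 46.6 ± 0.986 CPM in the ECs. The alveolar marker Aqp5, a water channel gene, gave 25, 25, and 10 counts in control osteoblasts and 0 in each treated library. The other alveolar markers had at most 4 counts in any library. These 3 genes were singled out after their values were seen.

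Plvap per Vwf took another order than Plvap per Cdh5. There were 0.774 ± 0.0421 Plvap counts per Vwf count in the control osteoblasts, 1.37 ± 0.0980 in the treated osteoblasts, and 4.92 ± 0.254 in the ECs (SD, n = 3), so the treated libraries lay between the other groups by Vwf and above both by Cdh5. These ratios were not tested, and the osteoblast values rest on 15 to 41 Cdh5 counts and 36 to 92 Vwf counts per library.

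Flot2 and Cavin4, both at over 80 CPM in the control libraries, had 4 to 10 counts in the EC libraries, whereas Flot1 was at 36.3 ± 0.645 CPM and Cavin1 at 974 ± 11.2 CPM there.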
